A study of Rattus norvegicus with 3 samples.

Results

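The genes described here code for the pores and helper subunits of potassium, voltage-gated calcium, voltage-gated sodium and ClC chloride channels and exchangers, measured in rat thoracic aorta. They were chosen by name: every gene whose symbol begins with Kcn, Cacna, Cacnb, Cacng, Scn and a digit, or Clcn, with a probe set that the platform annotation gives to that gene alone, and without Kcnmb1. This took in 82 genes of the 4736 that could be named, read by 129 probe sets. A probe set is a group of short oligonucleotides that together read 1 transcript.

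RNA came from Sprague Dawley rats that received, over 20 days, allylamine at 35 or 70 mg/kg, or water at 1 ml/kg as the control, and each group had 1 array. Allylamine is an amine toxic to heart and arteries, which amine oxidase in the vessel wall turns into the aldehyde acrolein. Neither the age nor the number of rats behind an array is given by the labels. With 1 array per group no difference below has a replicate check, an error between animals or a test, and every comparison is between those arrays.

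Arterial tone depends on the membrane potential of smooth muscle cells. Potassium leaving through voltage-gated, inward rectifier, tandem-pore and calcium-activated channels holds the potential negative, which keeps L-type calcium channels shut and the vessel relaxed. When potassium channels close, calcium enters through the L-type pore Cacna1c and the muscle contracts. Most other genes of these families are best known from neurons, heart, skeletal muscle or kidney.

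Among channels known in arteries, the array for 70 mg/kg had less signal for the ATP-sensitive potassium pore Kcnj8 than the control array, 4.70-fold, and more for the chloride-proton exchanger Clcn3, 4.66-fold. At 35 mg/kg the delayed rectifier Kcna5 was 6.19-fold higher than in the control and the other ATP-sensitive pore, Kcnj11, 4.42-fold lower. All upstream sequences held for these genes in the RefSeq table for the GRCr8 rat assembly are shown next, as the control regions of the vascular members with the largest differences. The table held 62 of the 82 genes, and Kcnj11 was not among them. Each run is the 250 bases before an annotated start, on the strand of the gene.
Kcna5, chr4:161043810-161044059, minus strand: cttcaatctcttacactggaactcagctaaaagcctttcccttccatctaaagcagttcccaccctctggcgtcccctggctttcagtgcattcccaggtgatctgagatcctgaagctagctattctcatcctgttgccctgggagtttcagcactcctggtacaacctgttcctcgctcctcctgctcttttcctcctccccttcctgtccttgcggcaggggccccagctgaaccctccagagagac
Kcnj8, chr4:177246549-177246798, minus strand: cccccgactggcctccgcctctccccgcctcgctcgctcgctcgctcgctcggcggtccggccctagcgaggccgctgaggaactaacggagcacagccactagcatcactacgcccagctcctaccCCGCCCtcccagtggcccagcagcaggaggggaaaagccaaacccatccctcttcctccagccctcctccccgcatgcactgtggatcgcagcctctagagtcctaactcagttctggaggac
Clcn3, start at chr16:34137754-34138003, plus strand: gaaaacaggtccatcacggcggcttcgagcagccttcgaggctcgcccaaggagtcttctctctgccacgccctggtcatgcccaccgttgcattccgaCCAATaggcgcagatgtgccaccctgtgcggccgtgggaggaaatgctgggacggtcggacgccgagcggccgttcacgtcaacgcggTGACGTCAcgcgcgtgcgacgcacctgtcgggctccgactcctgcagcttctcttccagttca
Clcn3, start at chr16:34165294-34165543, plus strand: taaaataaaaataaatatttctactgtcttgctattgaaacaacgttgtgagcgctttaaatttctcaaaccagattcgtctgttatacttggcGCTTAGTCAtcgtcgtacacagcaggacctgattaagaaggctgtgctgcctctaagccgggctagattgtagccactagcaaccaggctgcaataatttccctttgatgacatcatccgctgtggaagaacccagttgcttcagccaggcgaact

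The capitals mark matches, on either strand, to the GC box (GGGCGG), the cyclic AMP response element (TGACGTCA), the CAAT box (CCAAT), the TATA box (TATAAA), the core of the antioxidant response element (TGACNNNGC) or the CArG box bound by serum response factor. The letters of these motifs can overlap in part. The Kcnj8 region holds 1 GGGCGG, the upstream Clcn3 region holds 1 CCAAT and 1 TGACGTCA, the downstream Clcn3 region holds 1 TGACNNNGC, and the Kcna5 region holds none of the 6. Over the 71 regions of the 62 channel genes, 46.5% held GGGCGG, against 30.5% of all 33469 regions of that length. GC content beside it had a median of 59.6% in the channel regions and 51.2% in all. TGACNNNGC was in 9.86% of the channel regions and 10.1% of all, TGACGTCA in 1.41% and 1.59%, CCAAT in 25.4% and 34.0%, and TATAAA in 7.04% and 12.9%. The CArG box was in 0 of the 71 and in 1.50% of all. A match is a description of letters and not of a bound factor.

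Intensities below are linear values after each array was scaled to a common median, and 3 values in a row are always those of the control, 35 mg/kg and 70 mg/kg arrays. Levels of different probe sets are not comparable with each other. A floor was set at an intensity of 188, the 40th percentile of all values, and a probe set was compared only when above it on both arrays. A difference is on the log2 scale, so 1 means 2-fold, and a gene's difference is the median over its compared probe sets. Where a probe set crossed the floor, only a bound ("at least N-fold") is given, the brighter value against the floor.

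The 3 arrays differ in ways that touch every difference. Labelled control transcripts (9 probe sets) exceeded their control-array level by a median factor of 3.76 at 35 mg/kg and of 25.9 at 70 mg/kg, after scaling. The ratio of the 3' to the 5' probe set of cytoskeletal actin was 0.376 in the control, 0.542 with the low dose and 1.42 with the high dose. The part of these values in the differences was not tested. Of 7 smooth muscle markers on the array, 6 had a probe set above the floor in the control, 5 at 35 mg/kg and 6 at 70 mg/kg, with summed gene intensities of 2958, 2577 and 4021, or 2739.7, 1943 and 2441.5 without Cnn1, a sum chosen after seeing the data. Of 5 measured, calponin (Cnn1) was at least 2-fold higher at both doses (1.54 and 2.86), and the myosin heavy chain Myh11 was lower at 35 mg/kg (-1.20). The gene medians of Myh11 went the other way, at 123, 191 and 359, and in the control only 1 of its 3 probe sets was above the floor. Under 2-fold at 35 and 70 mg/kg were Acta2 (-0.28 and -0.02), Tagln (-0.93 and -0.84) and Myl9 (0.74 and 0.46). Desmin (Des) was above the floor in the control alone, at 370.0, and Tpm2 at 70 mg/kg alone, at 282. Of 9 neuronal markers, 7, 7 and 6 had a probe set above it, with sums of 4492, 5975 and 5209. At 35 mg/kg 3 of 7 were at least 2-fold higher and 0 lower, and at 70 mg/kg 1 of 6 higher and 1 lower. Over all genes 16.8% were higher and 16.3% lower at 35 mg/kg, and 19.7% and 23.2% at 70 mg/kg. Synaptotagmin (Syt1) and neurofilament Nefm lay below the floor on every array, whereas the vesicle fusion protein Snap25 had gene medians of 245, 761 and 1175 and synapsin (Syn1) read 2151, 1732 and 837. Marker sums of other cell types differed between the arrays too. They were 2340, 1986 and 3668 for endothelium, 1187, 1605 and 1174 for Schwann cells, and 2459, 5837 and 2733 for brown or white fat. Striated muscle markers summed to 4596, 3789 and 4115, and blood and immune markers to 1233, 827 and 1884. In a tissue sample, fewer cells of a type and less RNA per cell cannot be told apart.

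Signal above the floor came from 59 of the 82 channel genes in the control and from 62 with either dose. The corresponding shares of all genes were 68.5%, 66.6% and 67.4%, and those of the channel genes 72.0%, 75.6% and 75.6%. On all 3 arrays 50 channel genes had such a probe set, and 9 had none on any, against 13.4% of all genes. Those 9 were the delayed rectifier Kcna6, the cardiac and epithelial pore Kcnq1, the beta subunit Kcnab1, the inward rectifiers Kcnj2, Kcnj6 and Kcnj13, the small-conductance channel Kcnn3 and the sodium pores Scn1a and Scn10a. An intensity below the floor is a weak signal and not proof that the gene was silent.

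At 70 mg/kg, 30 of 51 measured channel genes (58.8%) differed from the control by 2-fold or more, 15 higher and 15 lower. Over all 2462 measured genes that share was 42.9%, with 19.7% higher and 23.2% lower. The median difference of the channel genes was -0.25, against -0.06 over all genes. With the values as deposited it was -0.15 against 0.034, and after quantile normalization -0.033 against 0.037. The gap to all genes was smaller with each of the other floors tried. With a floor at the 55th percentile, 9 of 26 channel genes (34.6%) differed by 2-fold, 3 higher and 6 lower, against 36.3% of all genes, and with a floor at the 5th percentile 51.3% of 78 channel genes against 50.3%. Channels outside the vascular list accounted for 24 of the 30, from 34 measured (70.6%), and the vascular list for 6 of 17 (35.3%). That contrast was not tested, and above the 55th percentile it was 8 of 17 against 1 of 9. At 35 mg/kg against control the order was the other way, 10 of 38 outside the list (26.3%) and 6 of 14 on it (42.9%).

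At 35 mg/kg, 16 of 52 channel genes (30.8%) differed from the same control array by 2-fold or more, near the 33.1% of all 2606 measured genes. Of these 5 were higher (9.62%, all genes 16.8%) and 11 lower (21.2%, all genes 16.3%). Their median difference was -0.13, and 0.04 over all genes. Between the doses, 30 of 50 channel genes differed by 2-fold, 17 higher and 13 lower at 70 mg/kg, where all 2459 genes had 35.3% in all, 14.4% higher and 20.9% lower. Here too the higher floor brought the count near that of all genes, 8 of 25 against 29.5%, with 3 higher and 5 lower. All 3 comparisons share arrays and are not independent.

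**Figure D1:**
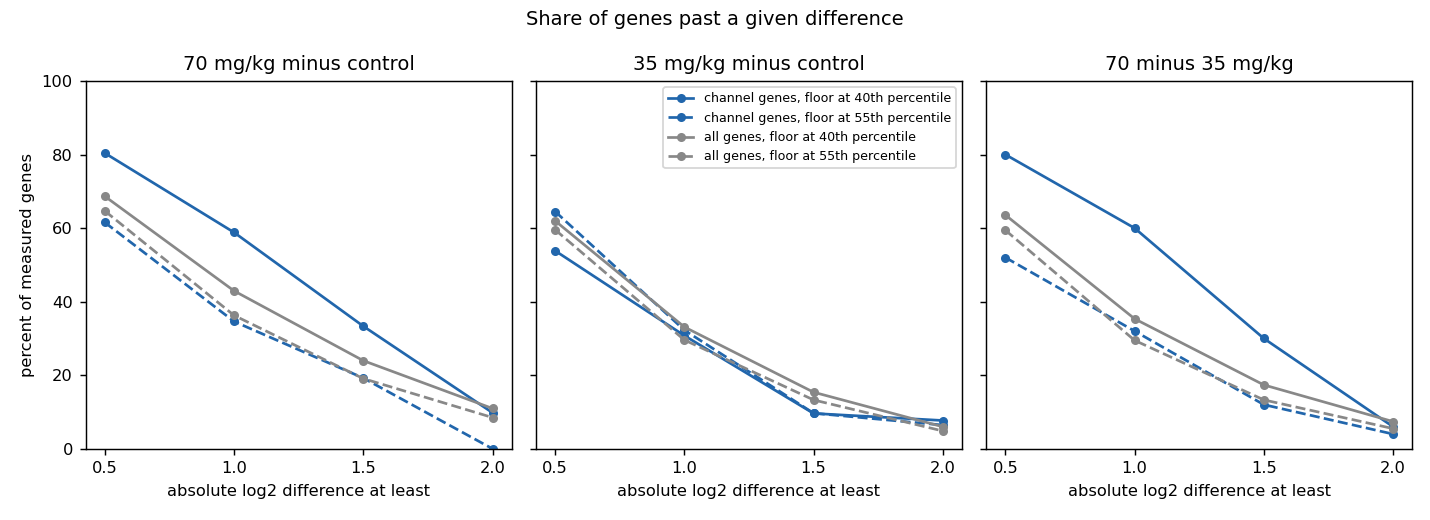
Percent of measured genes (vertical axis) whose absolute log2 difference is at least the size on the horizontal axis, for channel genes (blue) and all genes (grey), with floors at the 40th (solid) and 55th percentile (dashed). At a size of 1 the solid blue line reads 58.8% for 70 mg/kg against control, above the grey 42.9%, and both dashed lines lie close together.

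Bounds of at least 2-fold came beside these counts. At 70 mg/kg against control, 4 of the 82 channel genes were higher and 2 lower in this way, where all genes had 8.02% and 8.11%. At 35 mg/kg there were 3 and 2, with 4.46% and 5.57% of all genes, and between the doses 3 and 3, with 7.62% and 6.84%.

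The ATP-sensitive potassium channels open when ATP is low and are targets of vasodilator drugs. Kcnj8, their pore in vascular muscle, read 1057, 541 and 225 on its 1 probe set. The control was the highest and 70 mg/kg the lowest, with differences from control of -0.96 and -2.23 and of -1.27 between the doses. Kcnj11, the pore best known from pancreatic beta cells and heart, has 2 probe sets made from the same sequence, which may share probes. One read 1498, 239.6 and 2281 from control to 70 mg/kg, and the other 4615, 1478 and 1636. Both were lower at 35 mg/kg than in the control, a median of -2.14, but at 70 mg/kg they went opposite ways, 0.61 and -1.50.

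Voltage-gated potassium pores of the Kcna family repolarise the cell after depolarisation. Kcna5, a delayed rectifier of arterial muscle and atrium, read 487, 3015 and 436 on its only probe set. The 35 mg/kg array stood alone and high, by 2.63 over the control and by 2.79 over 70 mg/kg, while 70 mg/kg and control differed by -0.16. Kcna3, known from T cells and proliferating muscle, read 342, 263 and 230.0, differences of -0.38 and -0.57. Kcna1 had a probe set at 553, 464 and 249, a difference of -1.15 at 70 mg/kg, and another below the floor throughout, at 46.3 to 86.3. With the floor at the 5th percentile, where both count, Kcna1 was at -0.13.

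Kcna2 had probe sets that did not go together. One read 343, 168 and 369, above the floor on the control and 70 mg/kg arrays at nearly the same value, and the other 316, 26.7 and 30.9, above it in the control only. Kcna6 was dim, with all values between 20.7 and 72.8. Kcna4, a fast-inactivating pore outside the vascular list, read 2238, 853 and 657 on 1 probe set, lower at both doses by -1.39 and -1.77, and 62.7 to 108 on the other. With the floor at the 5th percentile Kcna4 was at -0.48 and -0.49, under 2-fold.

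Further vascular potassium channels were mostly dim or divided between probe sets. Kcnma1, the large-conductance calcium-activated pore that opposes contraction, had 4 probe sets. Their control, 35 and 70 mg/kg values were 428, 268 and 834 in the brightest at 70 mg/kg, 262, 615 and 80.5 in another, 76.6, 332 and 269.7 in the third, and 164, 42.5 and 38.9, below the floor, in the last. Only the brightest was measured on the control and 70 mg/kg arrays, at 0.96, and of the others 1 crossed the floor upward and 1 downward.

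Kcnk3, an acid-sensitive tandem-pore leak channel, read 240.3, 256 and 569 on 1 probe set, higher at 70 mg/kg by 1.24, and 210.0, 289 and 82.2 on the other, which went below the floor. When the floor was lowered to the 5th percentile and both counted, Kcnk3 was at -0.056. Kcnh2, the ether-a-go-go related pore that repolarises the heart, read 1265, 1101 and 1098 and, on its other probe set, 366, 626 and 281, with differences of 0.29 and -0.29 at the doses. Kcnj12, a strong inward rectifier, read 263, 78.4 and 689.6: it was higher at 70 mg/kg by 1.39 and was below the floor at 35 mg/kg. Kcnj2, its relative in arterial muscle, stayed below the floor at 34.4, 95.1 and 118.

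Kcnd3, an A-type pore, crossed the floor on 1 of 3 probe sets, at 244 in the control and 153 and 156 at the doses. Kcns3, a silent subunit that modifies other pores, crossed it at 35 mg/kg only (90.1, 240.1 and 145). The small-conductance channel Kcnn3 read 51.9 to 87.3, Kcnq1 read 45.0 to 93.7 and the beta subunit Kcnab1 137 to 146, all below the floor. None of these 5 gave a bound of 2-fold.

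**Figure D2:**
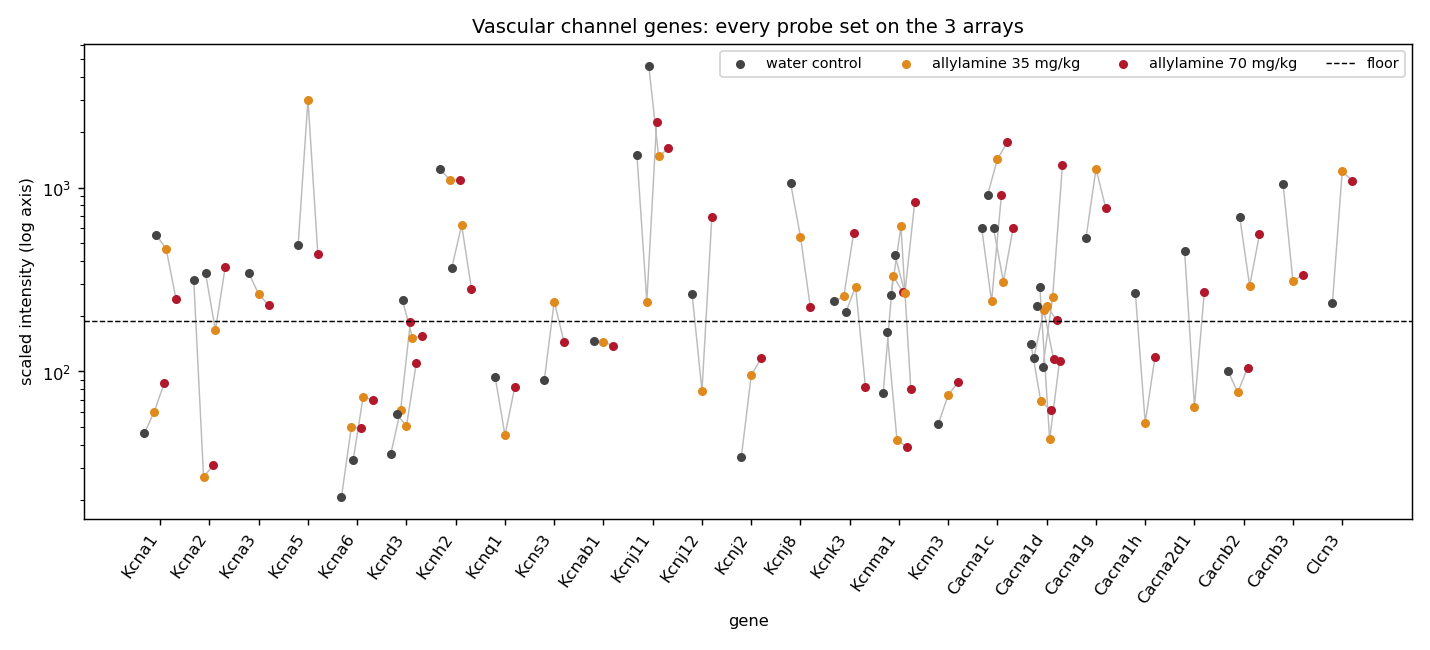
Scaled intensity on a log axis of every probe set of the 25 vascular channel genes on the array, joined by a grey line from the water control through 35 mg/kg to 70 mg/kg; the dashed line is the floor at 188. Kcna5 peaks at 3015 on the 35 mg/kg array, Kcnj8 goes from 1057 to 225, and Clcn3 reads 234 in the control, 1226 at 35 mg/kg and 1093 at 70 mg/kg.

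Calcium channels are built from a pore and helper subunits that set its traffic and gating. Cacna1c, the L-type pore of vascular muscle, had 3 probe sets, all above the floor on every array. They read 601, 241 and 907, then 914, 1432 and 1762, and then 601, 308 and 606. At 70 mg/kg their differences ran from 0.01 to 0.95 with a median of 0.59, and at 35 mg/kg the median was -0.96, with 2 lower and the brightest higher. The gene was under 2-fold in each comparison.

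Cacna1d, another L-type pore, had 5 probe sets, of which 1 went from 105 in the control to 253 and 1330.3, and another from 288 to 42.7 and 114. The only one measured throughout was nearly level in control and low dose, at 227, 228 and 190.3. Between the doses the gene was at 1.07, which became -0.26 with the floor at the 25th percentile. Of the low-threshold T-type pores, Cacna1g read 535, 1266 and 773, highest at 35 mg/kg (1.24), and Cacna1h was above the floor in the control only, at 267 against 52.5 and 121. The skeletal muscle pore Cacna1s was higher at 70 mg/kg on both probe sets, which read 281, 223 and 793, and 274, 159 and 707, a median of 1.43.

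Neuronal calcium pores went several ways. Cacna1e read 622, 558 and 234, lower at 70 mg/kg by -1.41. Cacna1b was highest at 35 mg/kg on both its probe sets, at 462, 716 and 193 and at 489, 854 and 429.6, so that the doses differed by -1.44, or by -0.99 with the brightest probe set. Cacna1a had 4 probe sets, 1 of which crossed from 123 to 906 at 70 mg/kg and another from 408 to 181, and the median of those measured was 0.28.

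Calcium channel beta subunits carry the pore to the membrane, and the 3 that were measured were all lower at 35 mg/kg. Cacnb3, a beta subunit of smooth muscle, read 1046, 309.5 and 336, differences of -1.76 and -1.64 at 35 and 70 mg/kg. Cacnb1, known from skeletal muscle, read 3677, 1657 and 1383, or -1.15 and -1.41. Cacnb2, of heart and vessel, read 689, 292 and 556, lower at 35 mg/kg by -1.24 but at -0.31 at 70 mg/kg, and its other probe set lay below the floor. Its -1.24 became -0.81 with the floor at the 5th percentile.

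The helper Cacna2d1 read 453, 64.4 and 270.3, at least 2.40-fold lower at 35 mg/kg. Cacnb4 passed the floor with the low dose alone (78.9, 309 and 141), and the skeletal muscle subunit Cacng1 read 449, 299.6 and 769. Over the auxiliary family 3 of 4 genes were at least 2-fold lower at 35 mg/kg and 0 higher, with a median of -1.19, where 16.3% of all genes were lower. Medians of floored levels gave 2 of 4 lower and a median of -0.88, the floor at the 5th percentile 3 of 6 lower and 1 higher, and that at the 55th left 1 gene measured. At 70 mg/kg 2 of 5 were lower and 0 higher, with a median of -0.74, beside 23.2% lower among all genes.

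Clcn3, an endosomal chloride-proton exchanger also described in vascular muscle, read 234, 1226 and 1093 on its only probe set. Both doses were above the control, by 2.39 and 2.22, and differed from each other by -0.17. Its relatives did not share this: Clcn4 read 588, 288 and 584, and Clcn5 read 2132, 1679 and 1219 on 1 probe set and 525, 143 and 179 on the other. The lysosomal exchanger Clcn7 (67.2, 101 and 254) and the skeletal muscle channel Clcn1 (83.5, 121 and 308) passed the floor with the high dose alone, neither by 2-fold.

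Of the 27 voltage-gated potassium pore genes, 15 were measured at 70 mg/kg against control, 4 of them at least 2-fold higher and 6 lower, and 15 at 35 mg/kg, 3 higher and 3 lower. The shares of all genes past 2-fold were 42.9% and 33.1%. Outside the vascular list, several neuronal potassium pores had low control values and high ones at 70 mg/kg. Kcnh4, of the ether-a-go-go group, read 259, 251 and 1328, a difference of 2.36. Kcnh1, of the same group, read 284, 250.1 and 958, or 1.75. Kcnc1 and Kcnc4, which let fast-spiking neurons repolarise quickly, read 237, 513 and 1004, and 271, 752 and 1037, and were higher at both doses, Kcnc1 by 1.11 and 2.08 and Kcnc4 by 1.47 and 1.94.

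Genes with bounds of at least 4-fold upward at 70 mg/kg follow, and the share of all genes at that size was not counted. Bounds of at least 2-fold upward came from 4 of the 82 channel genes and from 8.02% of all genes. The silent subunit Kcnf1 read 69.5, 762 and 1333, above the control by at least 4.04-fold with the low dose and at least 7.08-fold with the high. Kcnb2, a delayed rectifier, read 166, 166 and 961, at least 5.10-fold higher at 70 mg/kg. Kcnv1, another silent subunit, read 136, 227 and 900.0, at least 4.78-fold higher. Kcnh5 also crossed the floor, at 102, 121 and 384.

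Other voltage-gated pores had lower values at 70 mg/kg. Kcnh7, of the ether-a-go-go related group, read 797, 493 and 174, at least 4.23-fold lower. Kcnh6, of the same group, read 744, 89.7 and 256, lower by -1.54 at 70 mg/kg and by at least 3.95-fold at 35 mg/kg. The silent subunit Kcng1 read 1152, 514 and 563, lower at both doses by -1.16 and -1.03. With the values as deposited its -1.03 became -0.88, under 2-fold. Kcnq3, part of the M-current of neurons, read 1054, 1625 and 295 on 1 probe set (-1.84), but 18.1, 50.8 and 339 on the other. Medians of floored levels gave -0.49 at 70 mg/kg. Its -2.46 between the doses became 0.14 with the floor at the 5th percentile.

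Kcnh3, Kcnh8 and Kcnc2 had probe sets that disagreed. Kcnh3 read 7116, 3405 and 4153 on a bright probe set and 157, 204 and 1026 on a dim one, and its -1.06 at 35 mg/kg became -0.34 with the floor at the 5th percentile. Kcnh8 read 1076, 1301 and 198, and 823, 739 and 841, so that its -1.20 at 70 mg/kg became 0.032 with the brightest probe set alone. Of the 4 probe sets of Kcnc2, 2 crossed the floor upward at 70 mg/kg (66.9, 428 and 871, and 19.1, 41.7 and 478), 1 crossed it downward (253, 237 and 110.5) and 1 lay below it, and the 1.03 between the doses became -0.036 with the floor at the 25th percentile. Kcnd2, on 1 of its 2 probe sets, and Kcns1 were highest at 35 mg/kg, at 130.4, 538 and 91.1 and at 101, 538 and 222. Both were at least 2.86-fold above the control there. The other Kcnd2 probe set was below the floor throughout and lowest at 35 mg/kg, at 180, 116 and 161.

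The beta and minK-type helpers of voltage-gated pores were lower at 70 mg/kg where measured. Kcnab2 read 1979.5, 1459 and 604, and 547, 718 and 138 on its other probe set. Kcnab3 read 660.4, 405 and 189.6, the last only just above the floor, a difference of -1.80. Kcne1, the small partner of Kcnq1, read 636, 1006 and 424 on 1 probe set, a difference of -0.58 at 70 mg/kg. Its other probe set went the other way and crossed the floor upward, at 32.6, 249 and 404.

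**Figure D3:**
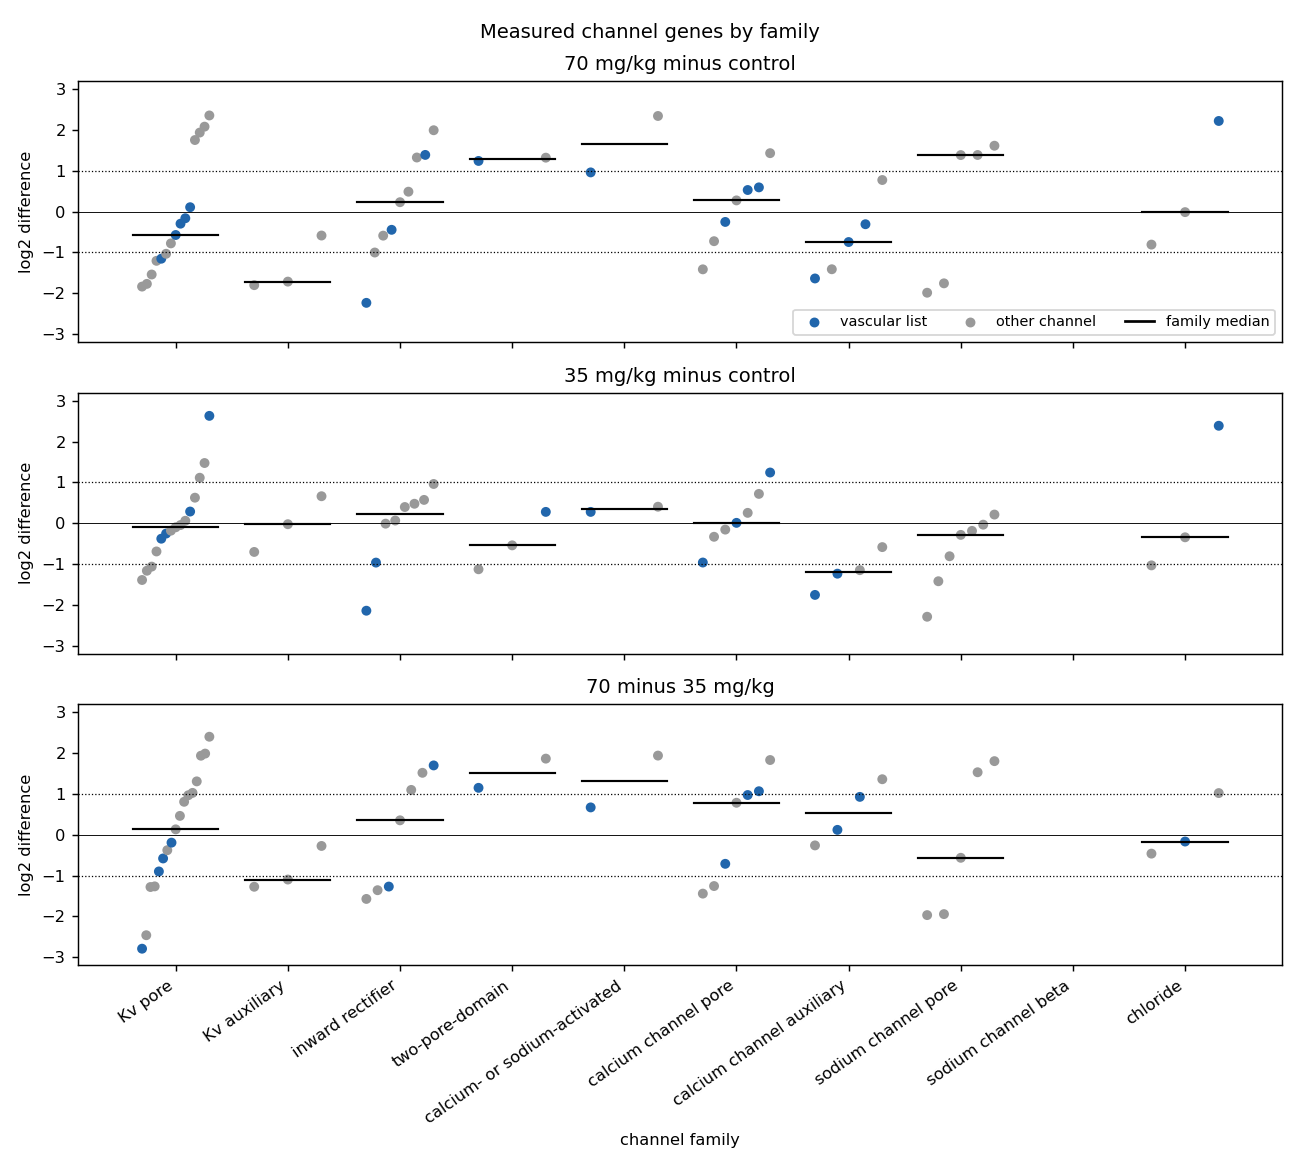
Log2 difference of each measured channel gene by family for 70 mg/kg minus control, 35 mg/kg minus control and 70 minus 35 mg/kg; blue points are on the vascular list, black bars are family medians and dotted lines mark 2-fold. Kv pores spread from -1.84 to 2.36 at 70 mg/kg, and the calcium channel auxiliary genes at 35 mg/kg all lie below 0.

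Of the 15 inward rectifier genes, 9 were measured at 70 mg/kg against control, with 3 at least 2-fold higher and 2 lower, and 8 at 35 mg/kg, with 0 higher and 1 lower. Over all genes 19.7% were higher and 23.2% lower at 70 mg/kg, and 16.8% and 16.3% at 35 mg/kg. Among those not yet described, Kcnj15 read 345, 479 and 1373, higher at 70 mg/kg by 1.99. Kcnj14 read 536, 796 and 268, lower at 70 mg/kg by just over 2-fold, but at -0.85 with the values as deposited. Kcnj10, of glia and kidney, read 289, 338 and 724 on 1 probe set and 643, 601 and 104 on the other, and Kcnj4 likewise 144, 172 and 1114 and 554, 730.0 and 126. In both genes the 70 mg/kg array was the highest of the 3 on 1 probe set and the lowest on the other, and the measured 1.33 of Kcnj10 became -0.65 with the floor at the 5th percentile. Kcnj1, the renal outer medullary channel, read 1131, 2201 and 859 on its brightest probe set, and its other 2 were below the floor at 35 mg/kg, at 47.3 and 47.5 against 424 and 412 in the control. Its 70 mg/kg difference from 35 mg/kg, -1.36, became 1.67 with the floor at the 5th percentile.

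Kcnj16 read 208, 206 and 292, and 176, 304 and 352. The G-protein-gated channels Kcnj3, Kcnj5 and Kcnj9, effectors of vagal and opioid receptors, crossed the floor upward at 35 mg/kg, at 688 from 83.5, 321 from 163 and 214 from 123, and were below it again at 70 mg/kg, at 128, 165 and 129. The other Kcnj3 probe set went the opposite way, at 219.7, 167 and 258, below the floor at 35 mg/kg only. Kcnj6, of the same group, stayed below the floor.

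The tandem-pore channel Kcnk1 read 407, 279 and 1018, higher at 70 mg/kg by 1.32. Kcnk5 went the other way, at 1329.7, 608 and 58.2, lower by -1.13 at 35 mg/kg and by at least 7.06-fold at 70 mg/kg. Kcnn1, a small-conductance calcium-activated channel of neurons, read 191, 252 and 968, a difference of 2.34 from a control value just above the floor. Kcnt1, gated by sodium, passed the floor with the low dose alone, at 201.

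Sodium channels start the action potential in nerve and striated muscle. Scn7a, an atypical pore of glia and nerve that senses sodium, read 1855, 692 and 468, lower by -1.42 and -1.99 at 35 and 70 mg/kg, whereas its other probe set read 186, 391 and 73.6 and the -1.42 became -0.18 with the floor at the 5th percentile. Scn11a, of sensory neurons, read 288, 253 and 882, higher at 70 mg/kg by 1.62. Scn4a, of skeletal muscle, read 251, 227 and 657 on 1 probe set, 339, 252 and 148 on another made from the same sequence, and 89.0, 48.3 and 260.4 on the third, and its 1.39 at 70 mg/kg became 0.094 with the floor at the 25th percentile. Scn3a read 1015, 1175 and 300.4, or -1.76 at 70 mg/kg, and its other probe set, from the same sequence, stayed below the floor; medians of floored levels gave -0.88.

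Scn8a, of the node of Ranvier, had the lowest difference of the list at 35 mg/kg, at 2304, 471 and 165 (-2.29), but another of its probe sets read 70.7, 1298 and 337, and with the floor at the 5th percentile the gene was at 0.95. Scn9a, of pain neurons, read 745, 425 and 162, and 338, 160.0 and 885, and its 1.39 at 70 mg/kg became -0.41 with the floor at the 25th percentile. Scn2a read 284, 277 and 33.6, and the beta subunit Scn2b 112, 68.4 and 227. Of the 9 sodium pores 5 were measured at 70 mg/kg, and these 5 differed by 2-fold, 3 higher and 2 lower, beside 42.9% of all genes. In 4 of the 5 the gene rests on 1 of several probe sets. Medians of floored levels gave 1 higher and 0 lower of 5, and the floor at the 5th percentile 2 higher and 2 lower of 7.

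Probe sets of 1 gene are the only repeat readings within an array. Of 33 channel genes with more than 1, 24 had at least 2 with a difference at 70 mg/kg after values below the floor were raised to it. In 16 of the 24 (66.7%) the probe sets differed in sign, and over all 1116 such genes in 53.5%. Opposite differences of at least 2-fold on each side were present in 4 channel genes, Cacna1a, Kcnj10, Kcnj4 and Scn9a, at 70 mg/kg against control, and in Scn7a and Scn8a at 35 mg/kg. Between the doses they were present in Kcnj10, Kcnj4, Kcnma1 and Scn9a. The pooled SD between measured probe sets of 1 gene was 0.89 over 8 channel genes at 70 mg/kg and 0.69 over 11 at 35 mg/kg, and 1.40 and 1.08 over all genes. Between the doses the order was the other way, with 1.38 over 11 channel genes and 1.22 over all genes. Probe sets that crossed the floor are not in these SDs, which say nothing of the spread between animals. Kcnj8, Kcna5, Clcn3 and Cacnb3 have 1 probe set each and no such repeat reading.

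**Figure D4:**
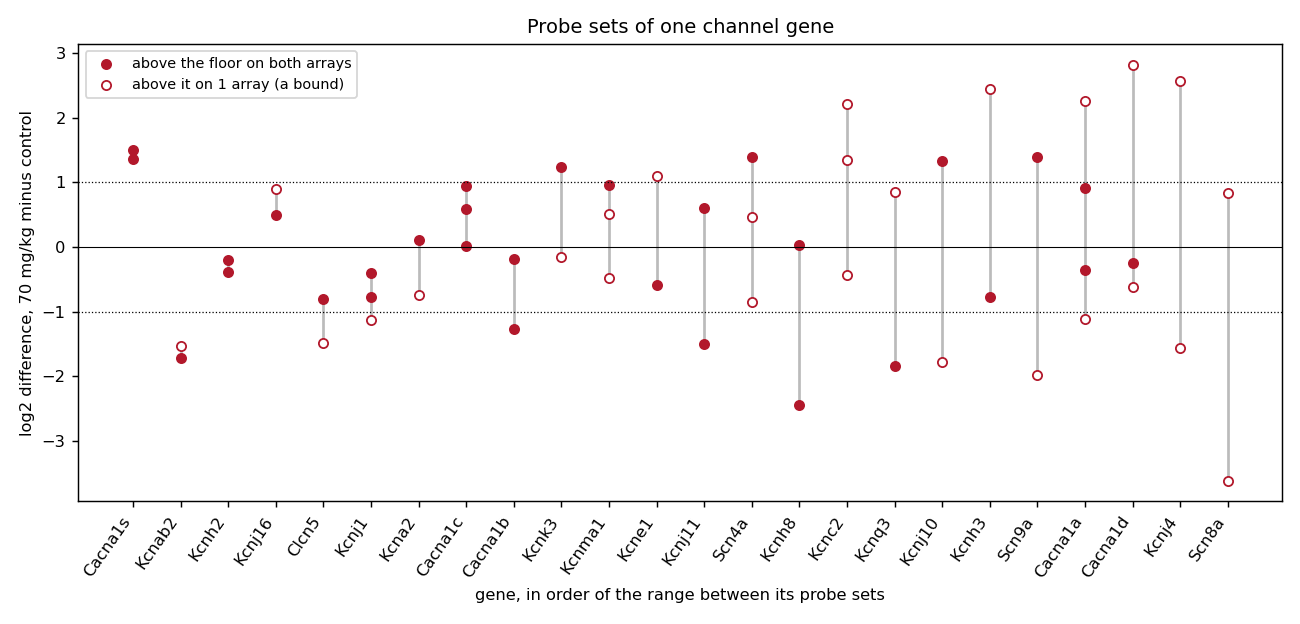
Log2 difference between 70 mg/kg and control for each probe set of the 24 channel genes with at least 2 probe sets that differ, in order of the range between them; filled points were above the floor on both arrays and open points are bounds. In 16 of the 24 the points lie on both sides of 0, and Scn8a, Kcnj4 and Cacna1d span the widest ranges.

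Partner genes of these channels and of calcium handling were read from a separate list of 45, of which 30 were on the array. At 70 mg/kg 3 of 19 measured were at least 2-fold higher and 6 lower (47.4%), at 35 mg/kg 3 and 2 of 21 (23.8%), and between the doses 1 and 5 of 19 (31.6%), against the shares of all genes given above. The sulfonylurea receptor Abcc9, which pairs with Kcnj8, had a probe set at 1062, 2675 and 2532, another at 553, 303 and 86.1, and the last at 80.6, 171 and 234. Kcnmb1, the beta subunit of Kcnma1, read 818, 770 and 258 on its measured probe set, lower at 70 mg/kg by -1.66.

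Phospholamban (Pln), which restrains the calcium pump, read 281, 461 and 1443, higher by 2.36. The inositol trisphosphate receptor Itpr3, a calcium release channel, was lower at 70 mg/kg on both probe sets, at 2766, 2277 and 231 and at 3917, 1742 and 920, a median of -2.84. Itpr1 differed by -3.27 on the 1 of its 5 probe sets that was measured, from 1881 to 194, while another went from 118 to 588. The sodium-calcium exchanger Slc8a1 had 5 probe sets with differences from -3.13 to 0.91 among those measured at 70 mg/kg.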

How the data were processed

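For every probe set the authors deposited 1 linear intensity per array. Neither software nor scaling is stated in the sources used here, though all arrays had a common 2% trimmed mean of 500.4, 500.4 and 500.2. Of 8799 probe sets, 59 controls were left out of the comparisons. The platform annotation gave 1 symbol to 7006, several to 308 and none to 1426. All 129 channel probe sets matched the GRCr8 gene table by gene ID, with 0 symbols changed. Each array was scaled linearly to a common median, by log2 factors of 0.06 for control, 0.04 for the low dose and -0.09 for the high dose, then floored. No test is possible with single arrays, whose number limits the precision.

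The 82 genes, the vascular list (25 of 32 on the array), the partner list and the cell type markers were chosen with earlier results of these data known. The rule for named genes took every vascular gene, the largest differences of each family, bounds of at least 4-fold and genes with 3 or more probe sets, and partners at least 4-fold different at 70 mg/kg; other genes were named after their values were seen. The 9 alternatives were other scalings, a floor lowered to the 5th or 25th or raised to the 55th percentile, and other ways to combine probe sets. Python 3.11.15, numpy 2.4.6 and pandas 2.3.3 were used, and the calculation was tested on simulated data. The simulation gave every probe set of a gene the same change, so it does not cover probe sets that disagree.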

Additional observations from a re-analysis of the deposited data

Results flagged for a closer look

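The labelled control transcripts, which lie outside the gene measurements, stood above their level on the control array by a median of 3.76 times at 35 mg/kg and 25.9 times at 70 mg/kg over 9 probe sets. Their part in the channel differences was not tested.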

How the results depend on the processing

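No paired analysis was possible because each group has 1 array and the labels carry no replicate numbers. Of 76 channel gene differences of at least 2-fold, 64 kept their sign under all alternatives that gave a value and 12 did not. In at least 1 alternative 23 dropped under 2-fold with the same sign, and 45 did neither. For the 49 of 82 genes with 1 probe set, other floors and probe set rules return the same difference or none. A kept sign in those genes is therefore fixed by the settings and is no measure of robustness. A floor at the 5th percentile reversed 70 mg/kg against control for Kcnj10 (-0.65), Kcnk3 (-0.056) and Scn9a (-0.41), 35 mg/kg against control for Scn8a (0.95), and 70 against 35 mg/kg for Cacna1d (-0.16), Kcnj1 (1.67), Kcnj10 (-0.71), Kcnk3 (-0.33) and Kcnq3 (0.14). The 25th percentile reversed Scn9a (-0.41), Cacna1d (-0.26) and Kcnc2 (-0.036), and the 55th, or the brightest probe set, Kcnh8 (0.032 at 70 mg/kg against control and 0.19 between doses). Medians of floored levels reversed Kcnj10 (-0.22 and, between doses, -0.29) and Scn9a (-0.30). These settings change which probe sets enter.

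At the 5th percentile floor 23 of 78 were higher at 70 mg/kg (51.3% past 2-fold either way, all genes 50.3%), 28 of 79 differed at 35 mg/kg, 14 of them higher (35.4%, all genes 41.5%), and 26 of 81 were higher between doses (50.6% either way, all genes 45.4%). At the 55th they were 9 (3 higher, 6 lower) at 70 mg/kg, 10 (2 higher) at 35 mg/kg and 8 (3 higher, 5 lower) between doses, with 41 channel genes above the floor at 35 mg/kg. Medians of floored levels gave 6 lower at 35 mg/kg. The median at 70 mg/kg was -0.033 after quantile normalization and 0.048 at the 5th percentile, where that at 35 mg/kg was 0.0089, and between doses it was -0.036 at the 25th and -0.0044 at the 55th. Dim signal near the floor limits most of these values.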
